A study of Sus scrofa with 48 samples.

Results

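Leptin, adiponectin and their receptors were followed in the perirenal adipose tissue (PRAT) of 48 pigs. The 5 genes were LEP (leptin), LEPR (the leptin receptor), ADIPOQ (adiponectin), ADIPOR1 and ADIPOR2 (the adiponectin receptors). They were found by gene name among the array's probes, whatever the case of the letters, and 21 of 60305 probes carried one of these names. The scanner files and the reference gene tables shared 10638 gene names in all. LEP had 3 probes, LEPR 1, ADIPOQ 9, ADIPOR1 3 and ADIPOR2 5.

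The pigs were Large White barrows of 2 lines selected divergently on residual feed intake (RFI), the part of feed intake not accounted for by growth and maintenance. Low RFI pigs (RFIneg) are the feed-efficient line and high RFI pigs (RFIpl) the other one. Each line was given, ad libitum, a diet rich in fat and fiber (HF) or a diet poor in both and rich in starch (LF), which made 4 groups of 12 pigs: HF low RFI, HF high RFI, LF low RFI and LF high RFI. No group carried a transgene or a drug, and the labels give an age of 132 days for all of them. Each pig gave 1 RNA sample and 1 one-colour array, so a pig is the replicate.

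Leptin is a hormone made by fat cells that tells the brain how much fat is stored, and it acts through LEPR, a cytokine receptor that signals by JAK2 and STAT3. Adiponectin is a collagen-like hormone, also made by fat cells, that is released as multimers. ADIPOR1 and ADIPOR2 are membrane proteins through which adiponectin acts on AMP-activated kinase, fatty acid oxidation and ceramide breakdown. In mammals circulating leptin usually follows fat mass, whereas circulating adiponectin tends to be lower in obesity.

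A probe is a 60-base DNA strand, and what it reads depends on where in a transcript it lies. The 6 probes below are shown as examples. At least 1 frame of their 60 bases reads through without a stop codon, as holds for other probes of these genes too. The brightest probe of each gene, on which most comparisons below rest, is not among them. Capitals mark the longest stretch shared with another spot of the array.

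LEP A_72_P442233: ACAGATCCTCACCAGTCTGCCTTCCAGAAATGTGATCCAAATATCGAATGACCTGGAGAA
ADIPOQ A_72_P767053: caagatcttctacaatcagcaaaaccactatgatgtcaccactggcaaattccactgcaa
ADIPOR1 A_72_P077761: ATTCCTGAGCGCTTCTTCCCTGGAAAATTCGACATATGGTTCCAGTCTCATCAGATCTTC
ADIPOR1 A_72_P187361: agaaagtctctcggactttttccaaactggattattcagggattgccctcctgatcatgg
ADIPOR2 A_72_P302919: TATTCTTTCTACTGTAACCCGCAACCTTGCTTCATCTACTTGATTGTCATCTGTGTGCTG
ADIPOR2 A_72_P440141: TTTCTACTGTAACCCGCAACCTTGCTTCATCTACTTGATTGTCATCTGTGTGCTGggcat

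The LEP 60-mer was spotted again as O15019, so these 2 LEP probes are repeat readings of 1 sequence. The ADIPOR2 probes shown share 55 bases, and the ADIPOR2 probes A_72_P016016 and O13159 hold identical bases. Among the ADIPOQ probes, A_72_P732525, A_72_P751372 and A_72_P752533 overlap, as do A_72_P503732 and A_72_P736683. Probes of 1 gene were therefore not independent of each other. The longest run shared by an ADIPOR1 and an ADIPOR2 probe was 8 bases. ADIPOR1 probe O10680 shared no 20 bases with any other probe of the array, and its assignment to ADIPOR1 rests on the array design alone.

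Values are a spot's median signal on the log2 scale, from which the median over all probes of that array was subtracted, so a value of 4 is a signal 4 doublings above the array's median probe. Levels of different probes were not compared. The arrays' median signals lay between 115 and 178 and their median backgrounds between 23 and 33, and 37104 of 60305 probes exceeded background clearly on each of the 48 arrays. Of the 21 probes, 20 did so. The single LEPR probe was well above background on 1 of 48 arrays. Of the 12 adipocyte markers found on the array, such as FABP4, PLIN1 and LIPE, 12 met this on every array. A probe was called when its difference between groups had a raw p under 0.01, a fold over 1.1 and a Benjamini-Hochberg (BH) adjusted p under 0.08 in limma, fitted and adjusted over all 60305 probes with diet, line and their interaction.

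Leptin had the largest diet difference among the brightest probes of the 5 genes. At the brightest LEP probe (A_72_P165551), HF low RFI pigs ran from 3.54 to 4.91 with a median of 4.05, and HF high RFI pigs from 2.11 to 4.87 with a median of 4.03. LF low RFI pigs ran from 4.06 to 5.57 with a median of 4.99, and LF high RFI pigs from 4.35 to 5.62 with a median of 4.78. The diets overlapped in part, over the stretch from 4.06 to 4.91. Outside it, 12 of 24 HF pigs lay below the lowest LF pig and 13 of 24 LF pigs lay above the highest HF pig. All 24 HF pigs were under the mean of the LF pigs.

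**Figure D1:**
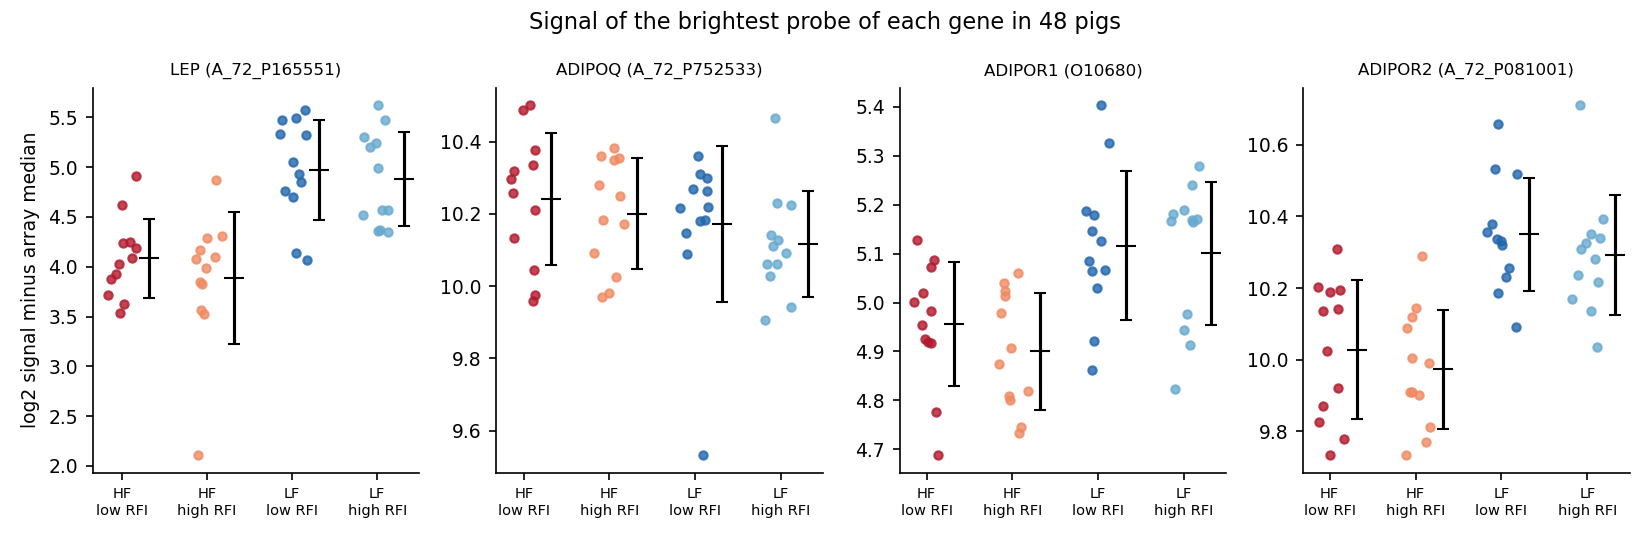
Signal of the brightest probe of LEP, ADIPOQ, ADIPOR1 and ADIPOR2 in each of 48 pigs, as log2 signal minus the array median, by diet and line, with the group mean and SD in black and a scale of its own for each gene. LEP lies lower in both HF groups than in both LF groups, with 1 HF high RFI pig at 2.11, and ADIPOQ overlaps across the 4 groups apart from 1 LF low RFI pig at 9.53.

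The mean was 3.99 ± 0.55 (SD, n = 24) in HF pigs and 4.93 ± 0.48 (n = 24) in LF pigs. LEP was thus 1.92-fold lower in HF pigs, and the log2 difference was -0.94 (95% interval -1.23 to -0.65, limma BH p = 7.63e-06). The lowest value belonged to 1 pig of the HF high RFI group (replicate 7), and without it the difference was -0.86 (BH p = 3.89e-06). The other LEP sequence gave differences of -0.79 (1.73-fold, BH p = 1.54e-06) at A_72_P442233 and -0.71 (1.64-fold, BH p = 3.35e-06) at O15019. In each of them all 24 HF pigs were under the LF mean, and 19 and 11 HF pigs respectively lay below the lowest LF pig. Across the 48 pigs the 2 repeat spots correlated at r = 0.96, with an SD of 0.15 for their difference. Leptin was lower in HF pigs on each of the 6 slides, by -0.57 to -1.47, with 4 HF and 4 LF pigs on each slide.

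The difference was seen in both lines. In low RFI pigs the brightest LEP probe differed by -0.89 (SE 0.20, BH p = 0.00702) and in high RFI pigs by -0.99 (SE 0.20, BH p = 0.00192). The difference between these 2 values was 0.10 with a 95% interval of -0.48 to 0.68 (raw p = 0.727 by limma). With 12 pigs per group the data thus leave room for any difference between lines inside that interval.

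The leptin receptor could not be read in this tissue at this sensitivity. LEPR values were -2.16 ± 0.37 (SD, n = 24) in HF pigs and -2.08 ± 0.29 (n = 24) in LF pigs, all of them below the median probe of their array. The same 60 bases, spotted again under a sequence number in place of a gene name, were well above background on 0 of 48 arrays. No fold is given for LEPR, because both diets were at background. A signal at background bounds what this probe could read and does not show that the transcript was missing. LEPROT, which neighbours LEPR in the reference annotation and gives a protein that regulates its traffic to the cell surface, was read on all 48 arrays, with a difference of -0.10 (BH p = 0.161) that was not called.

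Adiponectin showed no called diet difference. At its brightest probe (A_72_P752533) the HF low RFI pigs ran from 9.96 to 10.502 with a median of 10.28, and the HF high RFI pigs from 9.97 to 10.38 with a median of 10.22. The LF low RFI pigs ran from 9.53 to 10.36 with a median of 10.22, and the LF high RFI pigs from 9.91 to 10.46 with a median of 10.10. The 4 groups overlapped almost wholly, and no HF pig lay outside the range of LF pigs on the low side.

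The HF mean was 10.22 ± 0.17 (SD, n = 24) and the LF mean 10.14 ± 0.18 (n = 24), a difference of 0.08 (95% interval -0.03 to 0.18, BH p = 0.302). All 9 ADIPOQ probes leaned the same way, from 0.02 to 0.19 with a median of 0.11, and 0 of 9 were called. The closest was O15012, with a difference of 0.14, a BH p of 0.0453 and a fold of 1.099, just short of the 1.1 asked for. Of the 9 probes 4 had a raw p under 0.05 in limma, and the two-way ANOVA called 0 as well. The interval of the brightest probe leaves out a fall in HF pigs beyond -0.03. By slide the difference was above 0 on 4 of 6 slides and below 0 on 2, and it was -0.03 on the first scan day and 0.18 on the second. Pig LF low RFI replicate 11 was the lowest, and without it the difference was 0.05.

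The ADIPOQ result depended on how arrays were scaled. After quantile normalization 7 of 9 probes were called higher in HF pigs, with differences of 0.10 to 0.28. After centring on spike-in controls 8 of 9 were called, with differences of 0.14 to 0.31. With normexp and quantiles 8 of 9 were called higher, and with 75th percentile scaling, processed signals or array weights 2 of 9. A BH p under 0.05 alone and the replicate number as a block each called 1 of 9. The median difference over all probes was -0.04 as reported, 0.00012 after quantile normalization and 0.09 after spike-in centring. Called probes lower in HF were 64.7% of all diet calls as reported here, 48.1% after quantile normalization and 9.75% after spike-in centring. No scaling put an ADIPOQ probe lower in HF pigs.

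**Figure D2:**
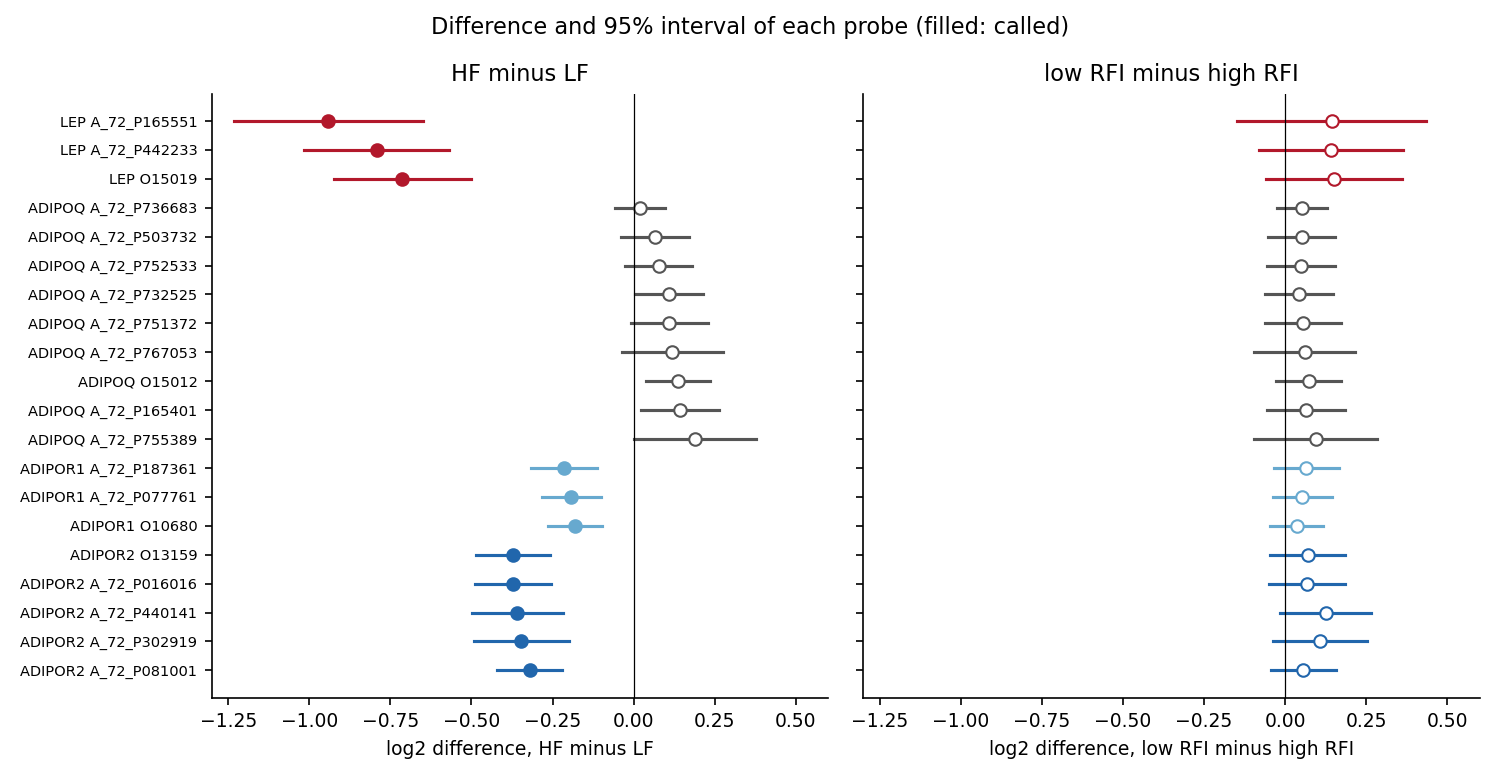
Difference (point) and 95% interval (line) on the log2 scale for each of 20 probes well above background, HF minus LF at left and low RFI minus high RFI at right, filled where called. The LEP, ADIPOR1 and ADIPOR2 probes lie left of 0 for diet, the ADIPOQ probes lie at 0.02 to 0.19, and no probe is filled for line.

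Both adiponectin receptors were lower in HF pigs. ADIPOR2, at its brightest probe (A_72_P081001), ran from 9.74 to 10.31 with a median of 10.08 in HF low RFI pigs, and from 9.73 to 10.29 with a median of 9.95 in HF high RFI pigs. It ran from 10.09 to 10.66 with a median of 10.33 in LF low RFI pigs, and from 10.03 to 10.71 with a median of 10.30 in LF high RFI pigs. All 24 HF pigs were under the LF mean and 14 of 24 lay below the lowest LF pig.

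The ADIPOR2 mean was 10.001 ± 0.18 (SD, n = 24) in HF pigs and 10.32 ± 0.16 (n = 24) in LF pigs, a difference of -0.32 (95% interval -0.42 to -0.22, 1.25-fold, BH p = 9.91e-06). The 5 probes fell by 0.32 to 0.37 on the log2 scale and 5 of 5 were called. The identical pair, A_72_P016016 and O13159, gave -0.37 and -0.37 and correlated at r = 0.99 over the pigs. ADIPOR2 was lower in HF pigs on 6 of 6 slides, by -0.12 to -0.52. The brightest probe differed by -0.32 in both lines (BH p = 0.00520 in low RFI pigs and 0.00377 in high RFI pigs), and the 2 lines' differences lay 0.00 apart (95% interval -0.21 to 0.20).

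ADIPOR1 had a smaller difference. Its brightest probe (O10680) ran from 4.69 to 5.13 with a median of 4.97 in HF low RFI pigs, and from 4.73 to 5.06 with a median of 4.89 in HF high RFI pigs. It ran from 4.86 to 5.40 with a median of 5.11 in LF low RFI pigs, and from 4.82 to 5.28 with a median of 5.17 in LF high RFI pigs. The ranges of the diets overlapped, yet 23 of 24 HF pigs were under the LF mean and 13 of 24 LF pigs were above every HF pig.

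The ADIPOR1 mean was 4.93 ± 0.12 (SD, n = 24) in HF pigs and 5.11 ± 0.15 (n = 24) in LF pigs, a difference of -0.18 (95% interval -0.26 to -0.10, 1.13-fold, BH p = 0.00124). The 2 ADIPOR1 sequences printed above gave -0.19 (BH p = 0.00174) and -0.21 (BH p = 0.00179). In high RFI pigs 3 of 3 probes were called, and in low RFI pigs 1 of 3, O10680 giving -0.16 with no call (BH p = 0.0897). The test of the difference between lines gave 0.04 (95% interval -0.12 to 0.21). ADIPOR1 depended on scaling: with spike-in centring 0 of 3 probes were called and the differences were -0.06 to -0.09, and after quantile normalization O10680, at -0.11, no longer reached the fold limit. LEP and ADIPOR2 probes were called under each of these scalings.

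Read together, 11 of 21 member probes were called lower in HF pigs and 0 higher, against 11.4% of all probes called lower in HF. Because probes of a gene repeat each other, this is 3 genes of 5, and LEPR was at background. Of all named genes 16.3% were called lower at their brightest probe. Within the low RFI line 9 of 21 were called lower (5.57% of all probes), and within the high RFI line 11 of 21 (6.48%). For the interaction 0 of 21 member probes were called and so were 0.0% of all probes, where 1680 of 60305 probes, and 0 of 21 member probes, fell under a raw p of 0.05 in limma. With ordinary ANOVA the interaction gave 0 calls as well.

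**Figure D3:**
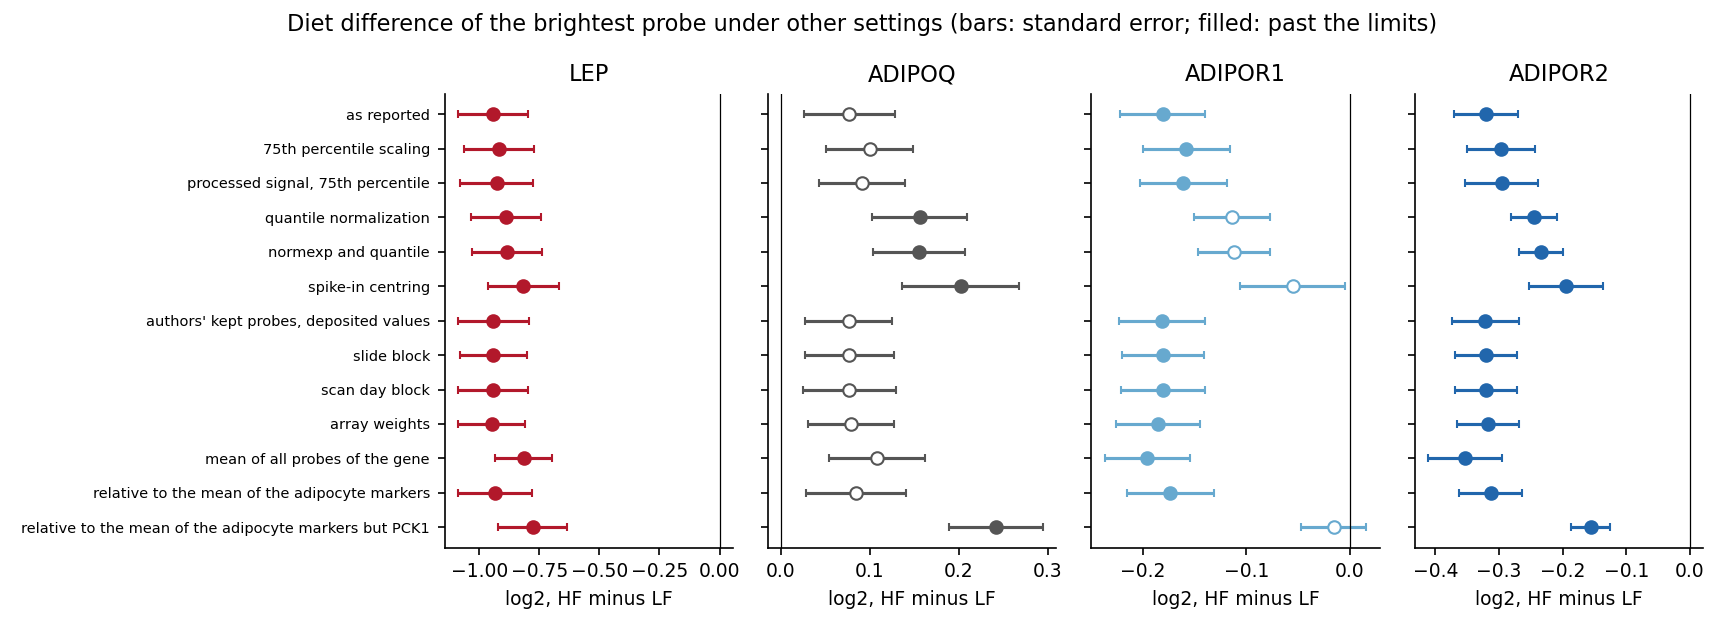
Diet difference (HF minus LF, log2, with SE) of the brightest probe of LEP, ADIPOQ, ADIPOR1 and ADIPOR2 under the reported setting and 12 others, filled where past the limits, with a scale of its own for each gene. LEP and ADIPOR2 stay filled in all settings drawn, ADIPOQ is filled with quantile, normexp, spike-in and one marker-based scaling, and ADIPOR1 is open in those same settings. The marker-based settings rest on a permutation p without BH adjustment, so their filled points are not calls.

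The line comparison asked whether selection on feed efficiency went with different levels of these genes. No member probe was called for line by limma, 0 of 21 against 2.17% of all probes, and the smallest raw p was 0.0798. An ordinary two-way ANOVA also called 0 of 21. LEP was 4.53 ± 0.64 (SD, n = 24) in low RFI pigs and 4.39 ± 0.76 (n = 24) in high RFI pigs, a difference of 0.14 (95% interval -0.15 to 0.43, BH p = 0.855), and of 0.06 without HF high RFI replicate 7 (BH p = 0.938). The intervals of the other brightest probes were narrower, -0.05 to 0.15 for ADIPOQ, -0.05 to 0.12 for ADIPOR1 and -0.04 to 0.16 for ADIPOR2. All 21 probes leaned towards low RFI pigs, by 0.02 to 0.15, and these probes share pigs and in part sequences. The lowest value, 0.02, belonged to the LEPR probe at background. Its sign turned with processed signals (-0.16), normexp and quantiles (-0.02) and spike-in centring (-0.007). Between lines on the HF diet 0 of 21 were called (0.546% of all probes), and on the LF diet 0 of 21 (0.257%).

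Levels of the members were also compared pig by pig, after the 4 group means were taken out. Permutations for these relations took no account of slide or replicate number. ADIPOR1 and ADIPOR2 went together most closely, with Pearson r = 0.62 and Spearman rho = 0.65 over 48 pigs (two-sided permutation p = 1e-05 for both, the smallest that 100000 permutations give; BH p = 0.00018 over 18 relations). Without the 2 pigs farthest from the ADIPOR1 median r was 0.57. The relation held within diets, at r = 0.60 (permutation BH p = 0.0130) in HF pigs and 0.67 (permutation BH p = 0.0036) in LF pigs.

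LEP went with ADIPOR1 at r = 0.42 and rho = 0.38 (permutation p = 0.00289 and 0.00758, BH p = 0.0130 and 0.0341), and r was 0.33 without the 2 pigs farthest from the LEP median. Within diets r was 0.52 in HF pigs (permutation BH p = 0.0235) and 0.35 in LF pigs (permutation BH p = 0.162). In HF pigs rho was 0.47, which did not pass 0.05 (permutation BH p = 0.0699). There r was 0.34 without the 2 pigs farthest from the LEP median. Over all 48 pigs LEP and ADIPOR2 gave r = 0.32 (permutation BH p = 0.0843) and rho = 0.38 (BH p = 0.0341). After quantile normalization they gave r = 0.20 (permutation BH p = 0.332) and rho = 0.21 (BH p = 0.336). LEP and ADIPOQ, the pair of hormones made by the same cells, showed no pooled relation (r = -0.05, rho = -0.11, permutation p = 0.733 and 0.447). Within diets they leaned in opposite directions, r = -0.39 in HF pigs and 0.34 in LF pigs, and neither passed adjustment (permutation BH p = 0.124 and 0.162). After quantile normalization the HF value passed, at r = -0.52 (permutation BH p = 0.0284) and rho = -0.59 (BH p = 0.0190), while the LF value was r = 0.20 (permutation BH p = 0.486). That the members share each array's scaling bears on all of these relations, and after quantile normalization ADIPOR1 and ADIPOR2 gave r = 0.42 (permutation BH p = 0.0284). In LF pigs alone they then gave r = 0.32, which no longer passed (permutation BH p = 0.332).

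**Figure D4:**
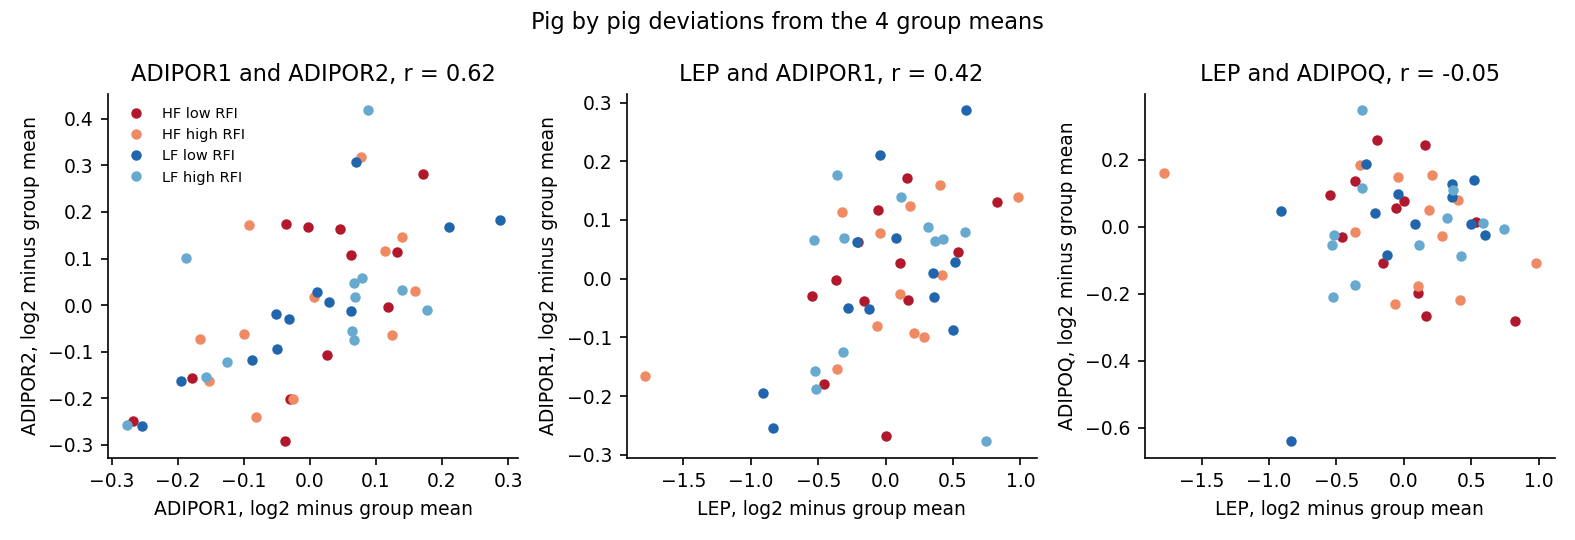
Deviation of each of 48 pigs from its group mean, in log2 units, for ADIPOR1 against ADIPOR2, LEP against ADIPOR1 and LEP against ADIPOQ. The receptors rise together (r = 0.62), LEP and ADIPOR1 do so more loosely (r = 0.42), and LEP and ADIPOQ show no slope (r = -0.05), with 1 HF high RFI pig far to the left and 1 LF low RFI pig far below.

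The genes most like each member by the same residuals were sought among 8065 genes well above background on all arrays, as a description. For ADIPOR2 they were VDAC1, a channel of the outer mitochondrial membrane (r = 0.81), DNAJC15, a mitochondrial co-chaperone (0.77), and PDHA1, a pyruvate dehydrogenase subunit (0.76). For ADIPOR1 they were C1QBP (0.86), ESR1 (0.79) and PMPCB, a mitochondrial processing peptidase subunit (0.78). For LEP they were ZBTB7A (0.73), TNS1 (0.71) and SNCAIP (0.70), and for ADIPOQ TET1 (0.71), PPP2R5A (0.71) and PTPRM (0.67). All the genes named for LEP, ADIPOR1 and ADIPOR2 were themselves called lower in HF pigs. Over all named genes, whether above background or not, the share called lower was 16.3%. Among the genes most like LEP, ADIPOR1 and ADIPOR2 the differences ran from -0.16 at C1QBP (BH p = 0.0182) to -0.51 at PDHA1 (BH p = 2.08e-06) and VDAC1 (BH p = 1.25e-06). Those named for ADIPOQ were not called. Array-wide scaling is shared by all genes here as well.

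The leptin pathway beyond its receptor had calls in both directions. Of 18 listed genes 16 were on the array; 3 were called lower in HF pigs and 2 higher, with a median difference of 0.02 against -0.05 over all named genes, of which 16.3% were called lower and 5.09% higher. SOCS3, a feedback inhibitor that leptin and other cytokines induce, was 2.53 ± 0.46 (SD, n = 24) in HF pigs and 2.14 ± 0.52 (n = 24) in LF pigs, higher by 0.40 (BH p = 0.0334). The related inhibitor CISH was lower by -0.33 (BH p = 0.00901), as were LEPROTL1, a relative of LEPROT, by -0.28 (BH p = 0.000166) and the phosphatase PTPN11 by -0.19 (BH p = 0.034). The adaptor GRB2 was higher by 0.14 (BH p = 0.0243). JAK2 (0.07, BH p = 0.361) and STAT3 (0.03, BH p = 0.525), which carry the receptor's signal, were not called. The counts for this list were 1 lower and 8 higher with spike-in centring and 2 lower and 4 higher after quantile normalization.

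Downstream of the adiponectin receptors, 15 of 19 listed genes were on the array, with 2 called lower, 2 higher and a median difference of -0.07. Over all named genes 16.3% were called lower and 5.09% higher. With spike-in centring 0 were lower and 3 higher, and after quantile normalization 1 was lower and 3 higher. Subunits of AMP-activated kinase were the 2 lower genes, PRKAA2 (-0.22, BH p = 0.0149) and PRKAB2 (-0.15, BH p = 0.0334, called under none of the 5 other scalings). The deacetylase SIRT1 was higher by 0.33 (BH p = 0.000554). PPARA, a regulator of fatty acid oxidation, was higher by 0.53 (BH p = 0.0316) at its brightest probe, but 1 of its 3 probes was called the other way. APPL1, the adaptor that binds both receptors, gave -0.02 (BH p = 0.807), a sign that turned under the 5 other scalings, and CDH13, an adiponectin-binding cadherin, 0.13 (BH p = 0.335). ACER3, an alkaline ceramidase, was the one listed gene of all 5 pathway lists called for line, lower in low RFI pigs by -0.41 (BH p = 0.0267, against 2.27% of named genes called for line).

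Of 10 genes for folding, assembly and release of adiponectin, 10 were on the array and 1 was called lower, against 16.3% of all named genes. This was P4HB, a protein disulfide isomerase, lower in HF pigs by -0.15 (BH p = 0.00418, called under none of the 5 other scalings). Of 15 measured regulators of adipokine genes 3 were called lower and 0 higher, against 16.3% and 5.09% of all named genes. These were CEBPA (-0.21, BH p = 0.044) and PPARG (-0.19, BH p = 0.0498), the central adipocyte regulators, and HIF1A (-0.14, BH p = 0.0294). None of the 3 was called under any of the 5 other scalings. For the whole list of regulators, spike-in centring gave 0 lower and 4 higher, and quantile normalization 0 lower and 1 higher.

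Other adipokines and their receptors went both ways. Of 40 listed genes 33 were on the array. Of these 4 were called lower and 6 higher, against 16.3% and 5.09% of all named genes, with a median difference of 0.10. The lower ones were led by SFRP5, a secreted Wnt inhibitor (-0.68, BH p = 0.00323), NAMPT, also known as visfatin (-0.51, BH p = 2.93e-05), and STRA6, the receptor for retinol-binding protein (-0.38, BH p = 0.00264). The higher ones were led by AGTR1, the angiotensin II receptor (0.63, BH p = 1.99e-05, above the LF mean in 24 of 24 HF pigs), FST, an activin antagonist (0.52, BH p = 0.0016), and the cytokine IL6 (0.44, BH p = 0.00864). These 6 kept their sign under the 5 other scalings. With spike-in centring the count for this list was 2 lower and 12 higher.

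**Figure D5:**
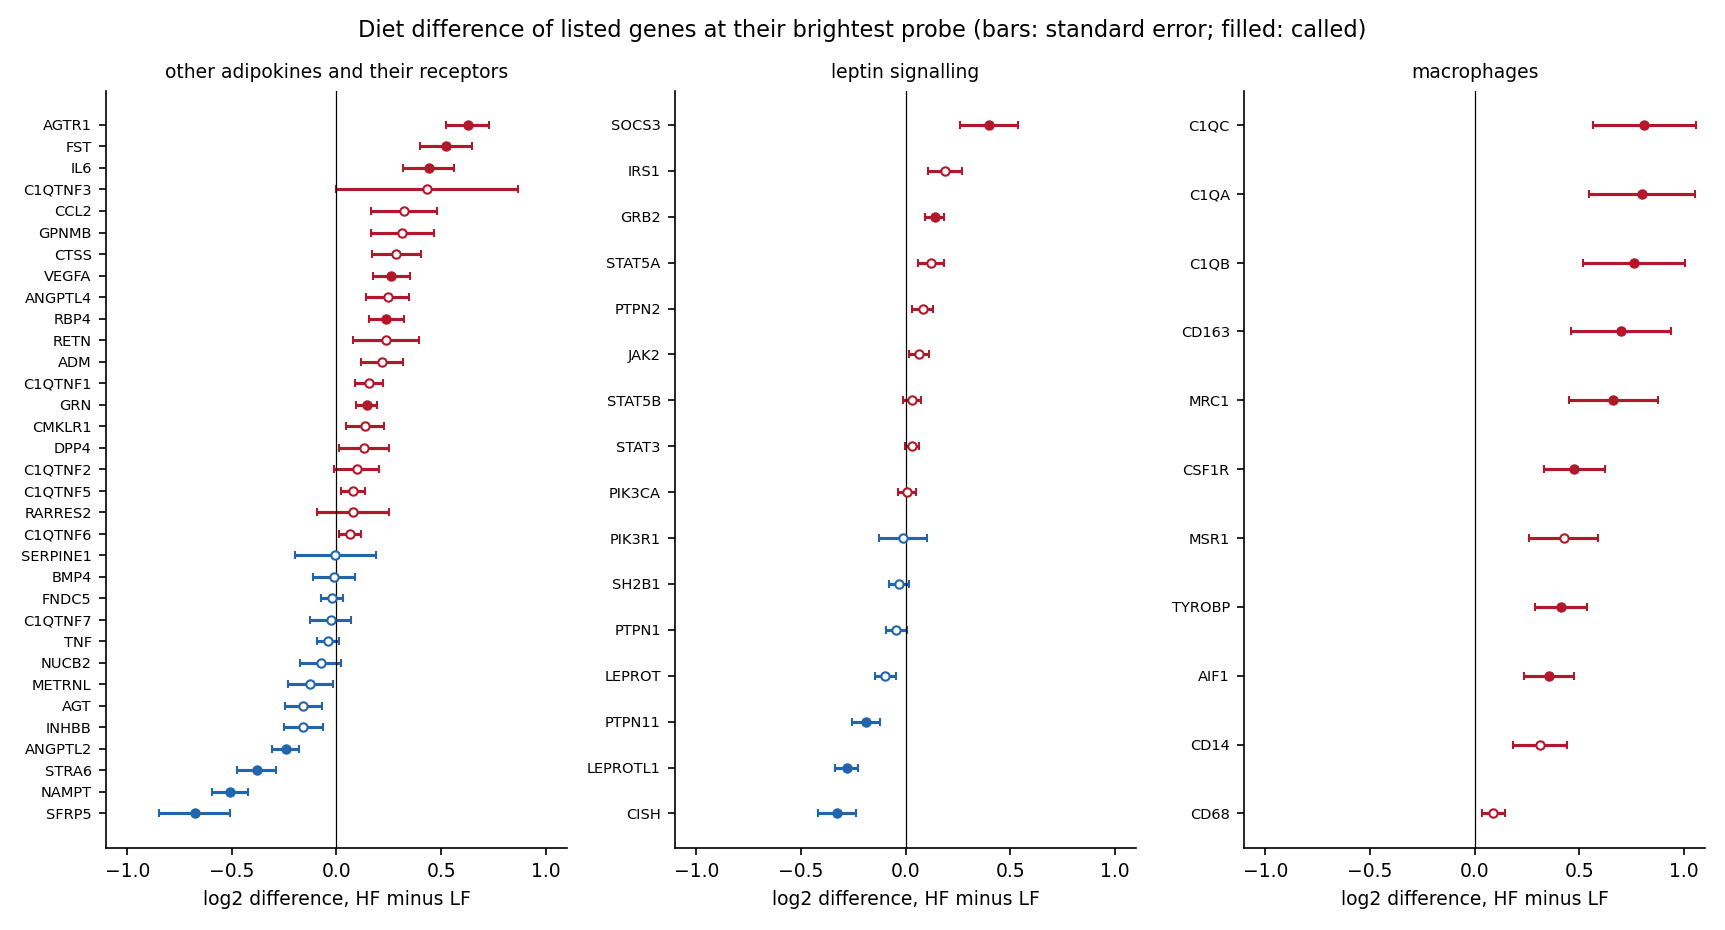
Diet difference (HF minus LF, log2, with SE) at the brightest probe of each gene measured in the lists of other adipokines and their receptors, leptin signalling and macrophage markers, filled where called. The adipokine list runs from SFRP5 at -0.68 to AGTR1 at 0.63, SOCS3 stands apart from JAK2 and STAT3 near 0, and the macrophage markers lie to the right of 0.

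PRAT is a mixture of cells, and fewer cells of a type and less RNA per cell cannot be told apart in it. Of the 12 adipocyte markers 3 were called lower in HF pigs, CIDEA (-0.42), CIDEC (-0.24) and GPD1 (-0.22), and 1 higher, PCK1 (1.72). Over all named genes 16.3% were called lower and 5.09% higher. The mean of the 12 markers ran from 8.06 to 8.72 in HF pigs and from 7.95 to 8.77 in LF pigs. Relative to that mean LEP differed by -0.93 (SE 0.15, permutation p = 1e-05), ADIPOR2 by -0.31 (permutation p = 1e-05), ADIPOR1 by -0.17 (permutation p = 3e-05) and ADIPOQ by 0.08 (permutation p = 0.137). With PCK1 left out, the 11 other markers were lower by -0.16 in HF pigs. Relative to these 11 LEP differed by -0.78 (permutation p = 1e-05), ADIPOR2 by -0.16 (permutation p = 1e-05), ADIPOR1 by -0.016 (SE 0.032, permutation p = 0.617) and ADIPOQ by 0.24 (permutation p = 4e-05). LEP and ADIPOR2 were thus lower relative to either set of markers, whereas the values of ADIPOR1 and ADIPOQ depended on whether PCK1 was among them.

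Macrophage markers went the other way, with 8 of 11 called higher in HF pigs (5.09% of all named genes), from AIF1 (0.36) to C1QC (0.81), and 0 lower. The mean of the 10 markers well above background on every array ran from 2.15 to 4.58 in HF pigs (median 3.52). In LF pigs it ran from 2.002 to 4.198 (median 2.95). All 11 were measured, but CD68, well above background on 42 of 48 arrays, was not in that mean. Of 7 endothelial markers 1 was called higher, of 9 T and NK cell markers 1, and of 10 preadipocyte and fibroblast markers 0, against the same 5.09% of all named genes. The part of these shifts in the differences of LEP, ADIPOR1 and ADIPOR2 was not tested.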

How the data were processed

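RNA of 48 PRAT samples was hybridised to one-colour Cy3 porcine arrays, on 6 slides scanned on 2 days, each slide with 2 arrays of every group. Signal intensity and flags (other values, 0 or 1) are the authors' scanner output (Feature Extraction 10.7.3.1), deposited without normalization between arrays. The authors also deposited filtered, median-centred log2 values for 38142 spots, made with R 2.10.0 per the labels. Their row names matched the spot holding their values in 2 cases, so this table was used only as an alternative, by value. The genome build is not given in the sources used here.

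From the scanner files, log2 gMedianSignal minus the array median over non-control probes was computed, after 198 spots flagged as not uniform or as population outliers were set aside. No non-control spot was saturated, and the number of arrays limits the precision. Diet, line and interaction were fitted with limma 3.58.1 (lmFit, eBayes) in R 4.3.3. Permutation tests were two-sided, with 100000 draws in Python 3.11.15, within line for values relative to markers. The fit was tested on simulated data. A gene outside the members is its probe with the highest mean. Named genes were the members, up to 3 called genes per list and direction, 7 fixed genes and the 3 most alike genes. Members and lists were chosen with earlier results of these data known. Alternatives were other scalings, filters, models and thresholds, single slides, and the mean of a gene's probes. Values relative to adipocyte markers and leaving out 2 single pigs were added after seeing the data.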

Additional observations from a re-analysis of the deposited data

How the results depend on the processing

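LEP kept a lower value in HF pigs under every alternative run, from -0.57 to -1.47 (slide 4 alone gave -1.47), and ADIPOR2 from -0.12 (slide 6 alone) to -0.52 (slide 4 alone). Asking for a fold over 1.5 ended the calls of ADIPOR2 (-0.32) and ADIPOR1 (-0.18) and left 464 probes for diet, 230 for line, 406 and 439 for diet in low and high RFI pigs, and 132 and 82 for line on HF and LF. At its brightest probe ADIPOR1 lost its call after quantile normalization (-0.11), normexp with quantile (-0.11), spike-in centring (-0.055) and relative to adipocyte markers without PCK1 (-0.016), and 2 of its 3 probes stayed called after either quantile setting. The brightest ADIPOQ probe gained a call in the same settings (0.16, 0.15 and 0.20). Relative to adipocyte markers without PCK1, ADIPOR1 gave -0.016 (permutation p = 0.617) and ADIPOQ 0.24 (permutation p = 4e-05). These 2 values have no BH adjustment and are not calls. Spike-in centring gave 10750 diet calls in low RFI pigs, 3190 in high RFI pigs and 209 line calls on HF. A BH p under 0.05 alone gave 3212 diet calls in low RFI pigs, and array weights 254 line calls on LF. The shares of diet calls lower in HF were 64.7% as reported, 50.7% with the 75th percentile, 47.2% with processed signals, 48.1% with quantiles, 48.3% with normexp and quantiles, and 9.75% with spike-in centring. The correlation of ADIPOQ with ADIPOR1, 0.21, turned to -0.11 after quantile normalization. The cause of these changes was not tested.

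Replicate numbers run over the groups, and same-numbered pigs deviated together more than others, though not in every pair. Their median r was 0.14 over 72 pairs, 38 of them over 0.1. For other pigs of the same slide it was 0.03, with 30 of 72 pairs over 0.1. The best match in another group bore the same number for 19 of 48 pigs, though only 1 of 12 pigs in each group bears a number. The main fit leaves the replicate number out, and the labels do not say whether it marks matched pigs. With the replicate number as a block, 11747 probes were called for diet, 1740 for line, 7785 for diet in low RFI pigs and 563 for line on HF. Without the block these counts were 10656, 1311, 4942 and 329. Each replicate number lies within 1 slide, so this block takes out slide differences as well. With the slide alone as a block the counts were 11312, 1511, 6858 and 449. With the replicate block LEP, ADIPOR1 and ADIPOR2 stayed called, and 1 of 9 ADIPOQ probes (A_72_P755389) was called, against 0 without it.

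LEPR at background, 12 pigs per group and probes that repeat each other limit what can be read. Positions in transcripts, proteins and promoters were not used here.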

Other observations

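On 5 spots the array repeats the 60 bases of a member probe under a sequence number in place of a gene name, and they were looked at after the members' values had been seen. The LEP repeat was 3.68 ± 0.49 (SD, n = 24) in HF pigs and 4.56 ± 0.49 (n = 24) in LF pigs, a difference of -0.89 (limma BH p = 9.5e-06). The ADIPOR2 repeat differed by -0.35 (BH p = 0.000382), the ADIPOR1 repeat by -0.19 (BH p = 0.00164) and the ADIPOQ repeat by 0.15 (BH p = 0.0896). The named probes with the same bases gave -0.94, -0.35, -0.19 and 0.14. They share sequence, array and pigs with the named probes and are repeat readings only.

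In the reference-organ markers, AQP2, the collecting duct water channel, was lower in HF pigs by -0.63 (limma BH p = 0.000387) at its brightest probe, with 1 of its 2 probes called, while the kidney markers SLC12A1 and SLC34A1 were well above background on 0 and 3 of 48 arrays. SLC4A1, the anion exchanger of red cells, was lower by -0.36 (BH p = 0.00016), and the haemoglobin gene HBB differed by 0.08 (BH p = 0.797). Of the brown fat markers COX7A1 was lower by -0.32 (BH p = 0.00807) and ELOVL3 was well above background on 0 of 48 arrays. By list, 1 of 5 kidney, 1 of 3 red cell and 2 of 5 brown fat markers on the array were called lower. None of them was called higher. Of all named genes 16.3% were called lower.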
